A study of Mus musculus with 12 samples.

Results

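The cytosolic ribosomal protein genes were taken as the protein-coding genes of the deposited table whose GENCODE M21 symbol is Rpl or Rps followed by a number, with an optional letter and digit, together with Rplp0, Rplp1, Rplp2 and Rpsa. The Rps6k kinases, which share only the name, were left out. The rule found 83 members among 40384 genes. Of these, 77 are core members, 46 of the large and 31 of the small subunit, and 6 are paralogs, protein-coding duplicates of a core member (Rpl3l, Rpl7l1, Rpl10l, Rpl22l1, Rpl39l and Rps27l). Levels are in FPKM, fragments per kilobase of annotated exon length and per 1000000 counted fragments. Genes with at least 1 FPKM in at least 3 libraries were tested. In all, 82 members passed, Rpl10l only through the iPSC libraries, and Rpl3l did not pass. The members lie on 19 chromosomes, 4 of them on X (Rpl10, Rpl36a, Rpl39 and Rps4x), and 30 of them contain 58 genes of small nucleolar or Cajal body RNAs within their bounds.

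Polyadenylated RNA of 12 mouse libraries was sequenced, 3 in each of 4 groups. All were labelled as 4F2A cells, which carry a doxycycline-inducible cassette of the reprogramming factors Oct4, Sox2, Klf4 and Myc. One growth protocol is given for all samples. It names fibroblasts of male homozygous 4F2A embryos of mid-gestation and medium with 1000 U/mL LIF, a cytokine that sustains pluripotent cells, and 2 μg/mL doxycycline. MEF are the embryonic fibroblasts. D4 are cells at day 4 with the overexpression control OE-NC. D4_DUX are cells at day 4 labelled OE-DUX, with overexpression for 48 h, and iPSC are the induced pluripotent stem cells. The labels state no number of embryos or lines and do not say that the libraries of a group are separate cultures, so p-values measure only the spread between these libraries, which may be technical. Whether the 4 groups share one genetic background is not stated either, so background and group cannot be told apart. Counted fragments, recovered from the steps between low values, were between 22480000 and 28140000 per library. The annotated Dux gene, Duxf3, was at or below 0.0247 FPKM in all 12 libraries and at 0 in the 3 libraries labelled D4_DUX, so the label is not matched by fragments counted at this gene, and every direction given for this group is that of the libraries labelled D4_DUX.

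A cytosolic ribosome joins a small subunit, which decodes the message, and a large subunit, which forms the peptide bond and holds the exit tunnel of the growing chain. The subunits are assembled in the nucleolus from ribosomal RNA and, with few exceptions, equal numbers of each protein. Messages of ribosomal proteins are among the most abundant of a dividing cell. Many start with a C followed by a run of pyrimidines, the 5′ terminal oligopyrimidine (TOP) tract, through which mTOR and Larp1 control their translation. Most members also have processed pseudogenes, inserted copies of the spliced message.

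The annotated start of the message was read from RefSeq (GRCm38.p6) for the 63 members with an entry. A C at the first base followed by at least 4 pyrimidines was present in 13 members (20.6%) and in 3.01% of 27025 genes. These members were Rpl14, Rpl15, Rpl28, Rpl35, Rpl35a, Rpl38, Rplp2, Rps10, Rps15a, Rps18, Rps21, Rps27 and Rps6. The starts of 4 of them are printed to show the tract, beside Rpl39 and the paralogs Rpl39l and Rpl10l, which return in the results and have no tract at the annotated base. Each sequence runs 5′ to 3′ from 10 bases before the start through the first 20 bases, and capitals mark the tract.
Rpl15, chr14:18270967-18270996, minus strand: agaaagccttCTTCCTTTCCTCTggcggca
Rpl28, chr7:4792955-4792984, plus strand: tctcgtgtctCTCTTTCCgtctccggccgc
Rps10, chr17:27635225-27635254, minus strand: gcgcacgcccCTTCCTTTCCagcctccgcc
Rps6, chr4:86857348-86857377, minus strand: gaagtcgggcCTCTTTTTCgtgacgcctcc
Rpl39, chrX:37085203-37085232, minus strand: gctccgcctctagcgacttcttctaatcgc
Rpl39l, chr16:10170218-10170247, plus strand: aggcctttccggatttccggtggtcgccat
Rpl10l, chr12:66284382-66284411, minus strand: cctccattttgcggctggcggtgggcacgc
The tract measured 13 bases in Rpl15, 10 in Rps10, 9 in Rps6 and 8 in Rpl28. Only the annotated base was read, so a start annotated some bases away leaves a tract uncounted. In the window from 250 bases before to 50 bases after the start, on both strands, CCGGAAG, a core of the site bound by ETS factors such as Gabpa, was present in 26 members (41.3%) and 9.93% of genes. AAGATGGC, a core of the Yy1 site, was present in 6 members (9.52%) and 3.19% of genes. CACGTG, the E-box that Myc can bind, was present in 6 members (9.52%) and 8.09% of genes.

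The 77 core members were abundant in every group. Their median level was 263 FPKM in MEF, 282 in D4, 247 in the libraries labelled D4_DUX and 286 in iPSC, and 68 to 70 of them were above 100 FPKM in each group. Rplp1, an acidic protein of the stalk that recruits translation factors to the large subunit, was the highest in every group. It was at 1680.1, 1719 and 1951 FPKM in MEF, 1939, 2109 and 1898 in D4, 1819, 1896 and 1927 in the libraries labelled D4_DUX, and 1922, 1636 and 1655 in iPSC. The ranges of all 4 groups overlapped for Rplp1. Rps19, a small subunit protein mutated in Diamond-Blackfan anaemia, was the lowest core member in MEF and iPSC, at 55.6 ± 9.19 and 53.5 ± 8.18 FPKM, and Rpl29 was the lowest in both day 4 groups, at 15.9 ± 1.28 FPKM in D4 and 14.8 ± 1.13 in the libraries labelled D4_DUX (SD, n = 3). FPKM divides by the length of all annotated exons, 499 bases for Rplp1 and 4685 for Rps19, so these ranks depend on the annotation.

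The 83 members together held 7.86, 7.98 and 8.51% of the summed FPKM in the MEF libraries. The share was 8.80, 9.05 and 8.43% in D4, 7.98, 8.23 and 8.11% in the libraries labelled D4_DUX, and 9.76, 9.20 and 9.33% in iPSC. The 3 iPSC libraries lay above the other 9, the D4 libraries lay above those labelled D4_DUX, and MEF library 3 reached the D4 range. Group means were 8.12 ± 0.346% in MEF, 8.76 ± 0.312% in D4, 8.10 ± 0.127% in the libraries labelled D4_DUX and 9.43 ± 0.292% in iPSC (SD, n = 3). In bulk RNA, fewer cells of a type and less RNA per cell cannot be told apart.

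Within a group the core members moved together from library to library. Compared with the mean of their group on the log2 scale, 73 of 77 were higher in MEF library 3, 76 in D4 library 2, 75 in D4_DUX library 2 and 63 in iPSC library 1, and 0 in D4 library 3. The median deviation of the members was 0.08 in D4 library 2 and -0.08 in D4 library 3. Other short and abundant coding genes, 130 with an exon length under 1500 bases and at least 50 FPKM, deviated by 0.08 and -0.07 in the same libraries. These shifts are near the size of the median differences between groups given next, and their part in them was not tested.

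**Figure D1:**
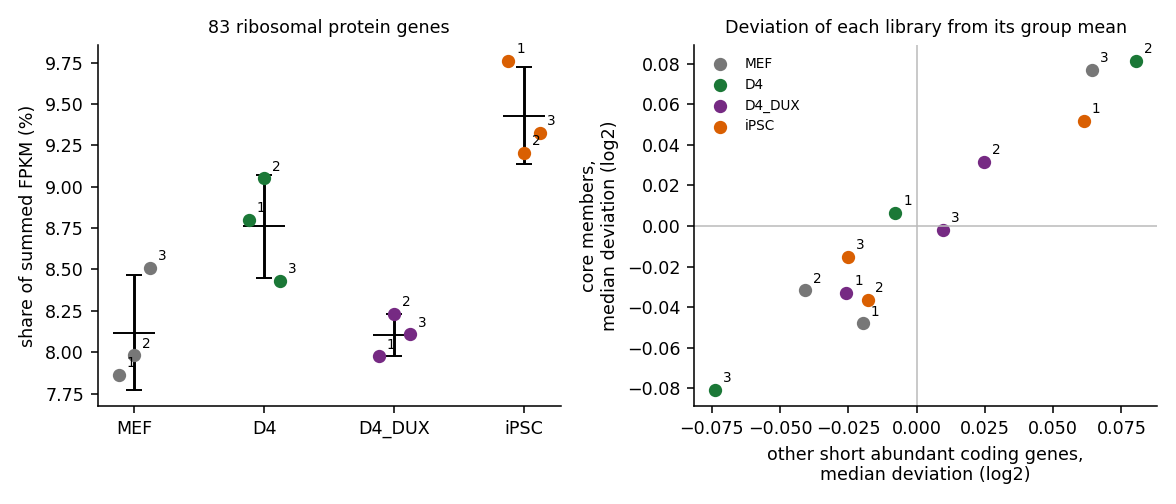
Left, the share of the summed FPKM (percent) held by the 83 members in each of 12 libraries, numbered by replicate, with group mean and SD. Right, the median log2 deviation of the 77 core members from their group mean against that of 130 other short, abundant coding genes. D4 libraries 2 and 3 lie at opposite ends, at 0.08 and -0.08.

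Markers of other cell types also moved with the groups. The summed level of 12 macrophage markers was 1635 to 1679 FPKM in MEF, 184 to 221 in D4, 45.9 to 46.9 in the libraries labelled D4_DUX and 134 to 176 in iPSC, with no marker at 0, led by Lyz2 at 1303, 149, 30.97 and 103 FPKM. All 12 were lower in D4 than in MEF and in the D4_DUX-labelled libraries than in D4. The 8 fibroblast markers summed to 5796 to 5927 FPKM in MEF, 3102 to 3222 in D4, 2350.2 to 2426 in the libraries labelled D4_DUX and 652 to 861 in iPSC, none at 0. The 8 pluripotency markers summed to 0.461 to 1.08, 106 to 132, 162 to 172 and 1508 to 1674 FPKM in the same order, with Pou5f1 at 0 in MEF and Dppa5a at 0 in the libraries labelled D4_DUX. The 5 epithelial markers summed to 4.89 to 5.33, 10.3 to 11.7, 27.1 to 28.8 and 129 to 141 FPKM and the 5 endothelial markers to 0.703 to 0.757, 14.02 to 14.5, 20.2 to 22.6 and 27.2 to 27.8, with Emcn at 0 in D4. Markers of one list did not always move alike. In D4 against MEF, 2 pluripotency markers were higher and 6 not called, and 2 fibroblast markers were higher and 6 lower. In the D4_DUX-labelled libraries against D4, 2 pluripotency markers were higher and 6 not called. Of the endothelial markers 2 were tested, and 1 was higher and 1 lower in iPSC than in D4. In the same comparison 3 macrophage markers were higher, 8 lower and 1 not called, and 4 epithelial markers were higher and 1 lower. Sox2 and Pou5f1, the gene of Oct4, are also in the cassette. The part of these cell types in the values of the ribosomal protein genes was not tested. The 4 erythroid markers of the table reached at most 1.10 FPKM in sum, and 6 skeletal muscle markers at most 11.4. Hbb-y, a globin gene outside the erythroid list and picked after its values were seen, was at 0 FPKM in MEF and iPSC. Its mean was 29.2 FPKM in D4 and 41.4 in the libraries labelled D4_DUX, and its source was not tested.

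In D4 against MEF, most differences of the members were small. Of 82 members tested, 28 were higher in D4 (34.1%) and 1 was lower, and the median log2 fold change was 0.10. The median was 0.0599 without D4 library 2 and 0.0462 after median-ratio scaling, and was positive under every alternative run. Over all 17114 genes tested, 34.2% were higher and 27.6% lower, with a median of 0.03. The share of members called higher was thus that of the background, and the share called lower was below the background. By subunit, 18 of 46 large subunit core members were higher and 1 lower, and 8 of 31 small subunit core members were higher and 0 lower. Without D4 library 2, 18 members were called higher and 3 lower. After median-ratio scaling the counts were 18 and 2, and after quantile normalization 28 and 4. Over all 17114 genes, 5582 were higher and 4458 lower without D4 library 2, 5312 and 5319 after median-ratio scaling, and 5155 and 5386 after quantile normalization. Adjusted p-values throughout are from limma with Benjamini-Hochberg adjustment over all genes tested.

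Rpl36, a small protein on the outer face of the large subunit (ENSMUSG00000057863, chr17:56613416-56614243), had the largest rise among core members. It was at 456, 499 and 586 FPKM in MEF, 768, 833 and 729 in D4, 615, 703 and 659.5 in the libraries labelled D4_DUX, and 869.97, 689 and 714 in iPSC. The D4 libraries lay above all MEF libraries (log2 fold change 0.60, SE 0.11, adjusted p = 0.000437). Rpl37a, a zinc-binding protein of the large subunit, was at 124, 121 and 151 FPKM in MEF, 175, 174 and 158 in D4, 149, 159 and 161 in the libraries labelled D4_DUX, and 128, 112 and 118 in iPSC. It was higher in D4 than in MEF with no overlap (log2 fold change 0.36, SE 0.08, adjusted p = 0.00231) and the iPSC libraries overlapped MEF. Rplp0, the base of the stalk (ENSMUSG00000067274, chr5:115559467-115563727), was at 868, 902 and 923 FPKM in MEF, 1311, 1296 and 1206 in D4, 1257, 1266 and 1235 in the libraries labelled D4_DUX, and 1019.6, 966 and 1011 in iPSC, with both day 4 groups above the other groups. Its rise in D4 (log2 fold change 0.50, SE 0.05, adjusted p = 2.91e-06) ended when its copies were added, as did that of Rpl21, a large subunit protein. Rpl21 was at 153, 147 and 159.5 FPKM in MEF, 196, 201 and 184 in D4, 174, 176 and 168 in the libraries labelled D4_DUX, and 183, 189.6 and 187 in iPSC (log2 fold change 0.34, SE 0.04, adjusted p = 2.81e-05). At the other end of the order, next to Rpl29, stood Rps3a1 (-0.09), Rpl13a (-0.07) and Rpl41 (-0.05), none of which was called. Rpl41, the shortest protein of the ribosome, was at 732, 767 and 847 FPKM in MEF, 736, 808 and 718 in D4, 699, 738 and 728 in the libraries labelled D4_DUX, and 897, 801 and 847 in iPSC, with MEF and D4 overlapping. Rpl13a, which is also known as part of a translational silencing complex in interferon-treated myeloid cells, was at 195, 202 and 237 FPKM in MEF, 199, 206 and 195 in D4, 181, 185 and 184 in the libraries labelled D4_DUX, and 234, 199 and 202 in iPSC.

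Rpl5 and Rpl11, which with 5S RNA bind Mdm2 and stabilize p53 when assembly fails, were next examined. Rpl5 (ENSMUSG00000058558, chr5:107900502-107909005) was at 226, 222 and 222 FPKM in MEF, 225, 236 and 214 in D4, 200.2, 200.3 and 199.9 in the libraries labelled D4_DUX, and 279, 287 and 291 in iPSC. It was level between MEF and D4 (log2 fold change 0.01, SE 0.04, adjusted p = 0.867), and above both in iPSC without overlap. Rpl11 was at 162, 163 and 174 FPKM in MEF, 188, 192 and 176 in D4, 165, 171 and 168 in the libraries labelled D4_DUX, and 192, 187 and 189.6 in iPSC. It was higher in D4 than in MEF (log2 fold change 0.15, SE 0.04, adjusted p = 0.00652), with the ranges just apart, and the call was lost after median-ratio scaling and after quantile normalization. Rplp2, the partner of Rplp1 in the stalk, was at 162, 174 and 180.3 FPKM in MEF, 177, 194 and 177 in D4, 166, 174 and 177 in the libraries labelled D4_DUX, and 207, 191 and 197 in iPSC and was not called in D4 (log2 fold change 0.09, SE 0.05, adjusted p = 0.184). Rps6, the small subunit protein phosphorylated by S6 kinase, was at 528, 545 and 547 FPKM in MEF, 533, 554 and 485 in D4, 469.8, 467 and 476 in the libraries labelled D4_DUX, and 643, 682 and 699.7 in iPSC. MEF and D4 overlapped for Rps6 (log2 fold change -0.05, SE 0.05, adjusted p = 0.472).

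**Figure D2:**
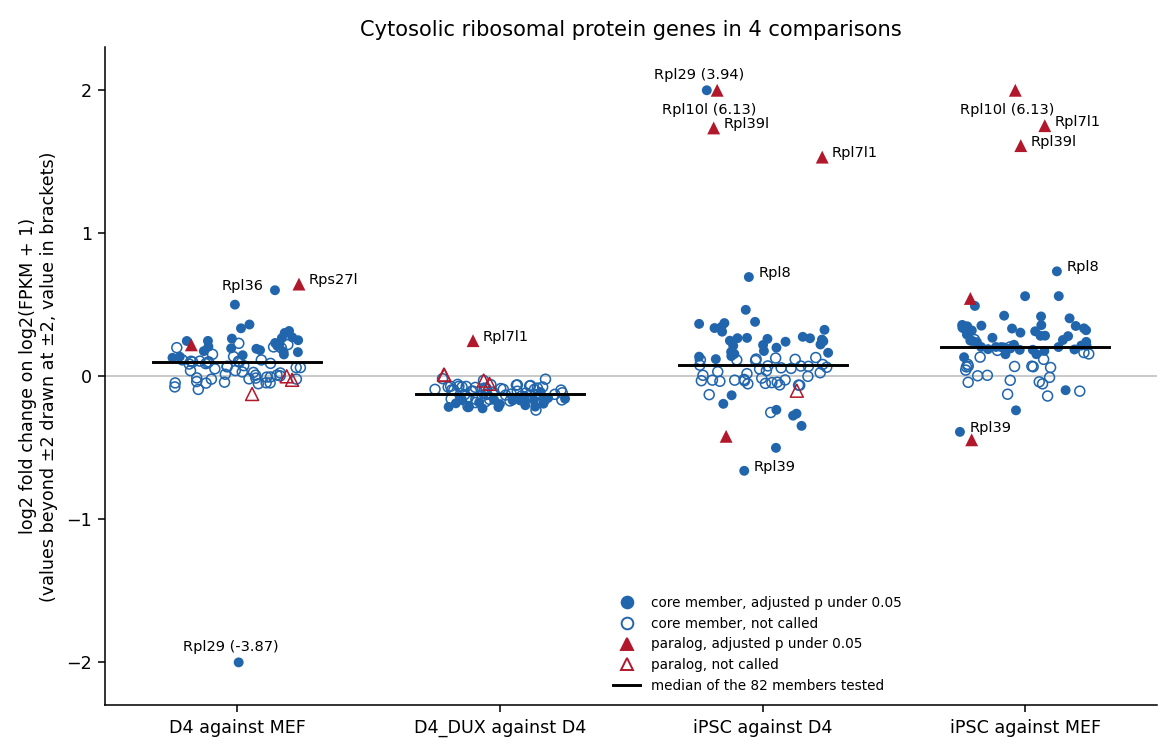
Log2 fold changes, on log2(FPKM + 1), of the 82 tested members in 4 comparisons, with symbols for core members and paralogs, filled where the adjusted p is under 0.05. Most members lie close to 0, the 77 core members all lie below 0 in D4_DUX against D4 (73 of them after quantile normalization), and Rpl29 stands apart at -3.87 in D4 against MEF and 3.94 in iPSC against D4.

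Rpl29, a protein on the surface of the large subunit (ENSMUSG00000048758, chr9:106429454-106431568, GRCm38), was the only member called lower in D4 than in MEF. It was at 244, 240.1 and 253 FPKM in MEF, 14.7, 17.3 and 15.9 in D4, 14.3, 16.1 and 13.9 in the libraries labelled D4_DUX, and 269, 252 and 254 in iPSC. Both day 4 groups were low and both other groups high, with no overlap (log2 fold change -3.87, SE 0.06, adjusted p = 8.95e-13, and for iPSC against D4 3.94, adjusted p = 1.68e-13). The genes beside it did not follow: Dusp7 was at 14.5 and 13.2 FPKM in MEF and D4, Abhd14a at 5.53 and 4.87, and Acy1 at 2.93 and 6.31.

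Fragments counted at copies of Rpl29 went the opposite way. A near-identical copy was defined as another gene that matches at least 80% of a member's coding sequence at 90% identity or more. There were 790 copies of 75 members, 773 of them pseudogenes, and 8 members had none. Rpl29 has 45 copies. Over its 480 coding bases without the stop codon, the processed pseudogenes Gm8210 (chr1:43189156-43189638) and Gm13841 (chr5:115801677-115802159) each differ from it at 3 positions. Coding bases 61 to 310 of Rpl29, from the GRCm38 reference, are printed to show how far apart these positions lie.
Rpl29: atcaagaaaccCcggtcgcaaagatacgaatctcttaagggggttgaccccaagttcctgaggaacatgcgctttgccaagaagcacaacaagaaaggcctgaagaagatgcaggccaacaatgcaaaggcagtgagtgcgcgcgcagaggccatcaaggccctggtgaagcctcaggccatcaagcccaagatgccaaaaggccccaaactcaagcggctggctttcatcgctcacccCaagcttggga
Capitals mark the first and second of these positions. Both copies carry C72A, C300T and T423C, counted from 1 at the first coding base, with the base of Rpl29 first and that of the copy last. The longest stretch without a difference was 227 bases, and the reads were 150 bases long.

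To add genes of different length, levels were turned into fragments per 1000000 counted fragments (FPM). Rpl29 itself was at 275, 270.4 and 285 in MEF and 16.6, 19.5 and 17.8 in D4 on this scale. Its copies together were at 222, 231 and 239 in MEF, 501, 512 and 477 in D4, 424, 454 and 429 in the libraries labelled D4_DUX and 267, 237 and 230.2 in iPSC. The copies were thus high where Rpl29 was low. Gm8210 alone was at 114 ± 4.48 in MEF and 259.9 ± 6.96 in D4, and Gm13841 at 91.5 ± 4.12 and 199 ± 8.33 (SD, n = 3). The sum of Rpl29 and its copies was 507 ± 14.4 in MEF, 515 ± 18.02 in D4, 452 ± 17.1 in the libraries labelled D4_DUX and 535 ± 29.99 in iPSC. With the sum in place of the gene, the log2 fold change in D4 against MEF was 0.02 (SE 0.05, adjusted p = 0.75), and that of iPSC against D4 was 0.06 (adjusted p = 0.309).

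For Rpsa and Rplp0 it was the copies that were low at day 4. Rpsa (ENSMUSG00000032518, chr9:120127689-120132369), a small subunit protein also described as a laminin receptor, was at 339, 353 and 344 FPKM in MEF, 415, 434 and 382 in D4, 388, 397 and 386 in the libraries labelled D4_DUX, and 378, 397 and 405 in iPSC. It was higher in D4 than in MEF with no overlap (log2 fold change 0.25, SE 0.05, adjusted p = 0.00083). Its copy Rpsa-ps10 (chr3:150072658-150073542) was at 462, 495 and 446 FPM in MEF, 5.80, 5.17 and 5.58 in D4, 5.10, 5.93 and 5.25 in the libraries labelled D4_DUX and 514, 592 and 581 in iPSC. The sum of Rpsa and its 14 copies was 1624 ± 42.7 in MEF, 1316 ± 82.5 in D4, 1252 ± 18.3 in the libraries labelled D4_DUX and 1880.1 ± 84.7 in iPSC. On the sum, D4 was called lower than MEF (log2 fold change -0.30, SE 0.05, adjusted p = 0.000284), the reverse of the call on the gene alone. A stretch with 2 of the 6 substitutions between them over 885 coding bases is printed.
Rpsa, coding bases 184 to 243: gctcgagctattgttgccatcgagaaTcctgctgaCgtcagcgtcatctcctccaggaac
Rpsa-ps10, the same stretch: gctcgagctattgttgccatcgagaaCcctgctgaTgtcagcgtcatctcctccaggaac
Capitals mark T210C and C219T, counted as above.

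The copy of Rplp0 was also low at day 4. On the FPM scale, Rplp0 was at 1489 ± 45.96 in MEF and 2108 ± 94.8 in D4, and Gm8730 (chr8:102864845-102865798) at 429 ± 32.1 in MEF, 7.58 ± 0.800 in D4, 7.76 ± 0.913 in the libraries labelled D4_DUX and 491 ± 32.1 in iPSC. The sum over Rplp0 and its 4 copies was 2011 ± 84.2 in MEF and 2118 ± 94.99 in D4 (log2 fold change 0.07, SE 0.05, adjusted p = 0.236). These sequences differ by 12 substitutions over 951 coding bases, 3 of them in the stretch printed.
Rplp0, coding bases 388 to 447: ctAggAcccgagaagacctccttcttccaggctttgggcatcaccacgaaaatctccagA
Gm8730, the same stretch: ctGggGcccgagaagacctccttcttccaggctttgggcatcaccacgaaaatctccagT
Capitals mark A390G, A393G and A447T. Rps3a1, a small subunit protein, also had a copy that was high at day 4. It was at 809, 807 and 820.4 FPKM in MEF, 769.8, 801 and 718 in D4, 687, 686 and 661 in the libraries labelled D4_DUX, and 971, 982 and 1007 in iPSC, and its copy Rps3a3 (chr13:108670603-108671397) at 8.68 ± 0.827 FPM in MEF, 126 ± 4.49 in D4, 111 ± 1.54 in the libraries labelled D4_DUX and 10.1 ± 1.16 in iPSC. The log2 fold change of Rps3a1 in D4 against MEF was -0.09 alone (adjusted p = 0.106) and 0.13 with copies (adjusted p = 0.0273).

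Adding copies changed the call of 6 members in D4 against MEF (Rpl15, Rps3a1, Rpsa, Rpl21, Rpl29 and Rplp0), of 1 in D4_DUX against D4 (Rpl29), of 8 in iPSC against D4 (Rpl15, Rplp2, Rpsa, Rpl22l1, Rpl21, Rps2, Rpl29 and Rplp0) and of 4 in iPSC against MEF (Rps25, Rpl22l1, Rpl7 and Rpl36a). It moved the log2 fold change by over 0.1 for 9, 0, 10 and 1 members. Rpl7a, a large subunit protein with the most copies, 67, kept its calls. All copies together held 2612 ± 77.9 FPM in MEF, 1925 ± 72.5 in D4, 1762 ± 44.2 in the libraries labelled D4_DUX and 3025 ± 21.2 in iPSC (SD, n = 3). The sources used here do not tell how fragments were divided among copies, so the levels of single members with such copies are uncertain.

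**Figure D3:**
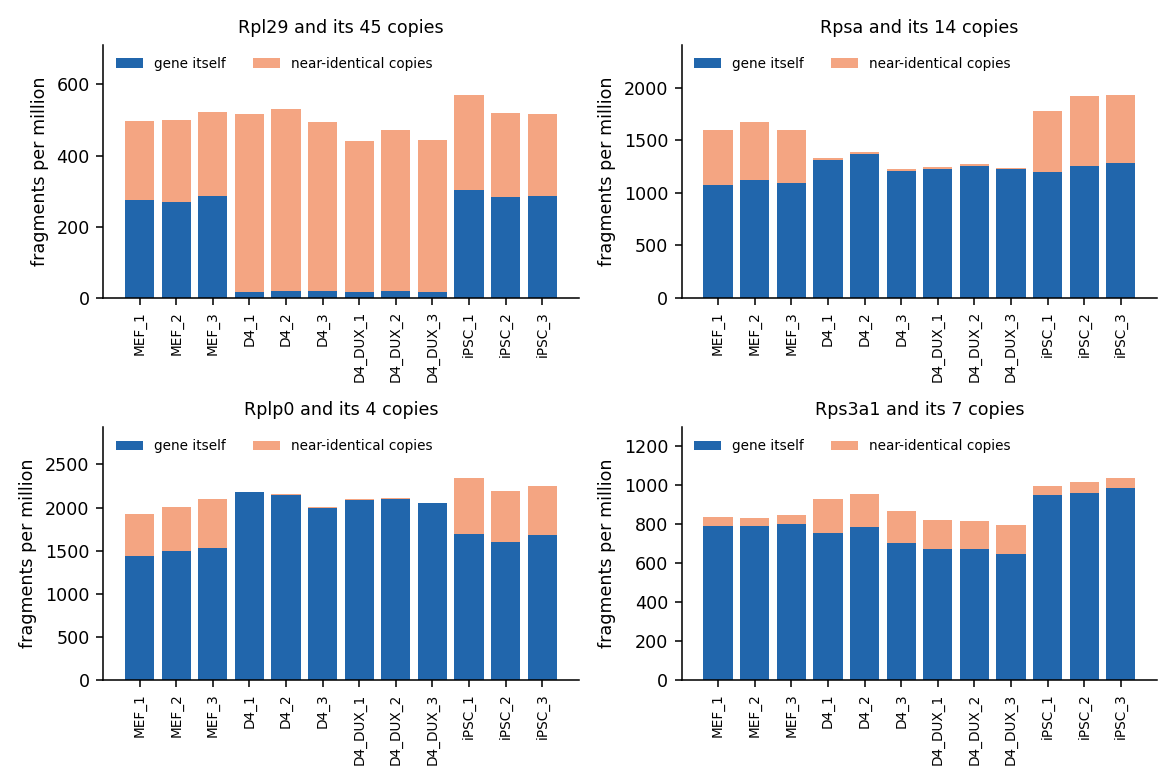
Fragments per 1000000 counted fragments at Rpl29, Rpsa, Rplp0 and Rps3a1 and, stacked on them, at their near-identical copies in each of 12 libraries. The sum for Rpl29 has a mean of 507 in MEF, 515 in D4, 452 in D4_DUX and 535 in iPSC, while its own part falls to a mean of 17.96 in D4, and the copies of Rpsa and Rplp0 are near 0 in the 6 day 4 libraries.

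In the libraries labelled D4_DUX against D4, every one of the 77 core members had a negative log2 fold change, although 73 of 77 were negative after quantile normalization, 76 without D4 library 1 and 74 without D4 library 2. Of 82 members tested, 23 were lower (28.0%) and 1 was higher, with a median of -0.13. Over all genes, 20.1% were higher and 15.4% lower, with a median of 0.02. By subunit, 16 of 46 large and 7 of 31 small subunit core members were lower. The count of lower members depended on single libraries: it was 12 without D4 library 1, 13 without D4 library 2, 37 without D4 library 3, 13 without D4_DUX library 1 and 12 without D4_DUX library 3. Over all 17114 genes, 2194, 2285, 2334, 2130 and 2164 were lower in the same runs. Apart from the run without D4 library 3, the share of members called lower in these runs was thus close to that over all genes. The median was -0.0791 without D4 library 2 and lay between that and -0.17 under every alternative run. D4 library 3 is the one in which every core member lay below its group mean.

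Among core members, Rpl36 had the lowest value and was not called (log2 fold change -0.24, SE 0.11, adjusted p = 0.111), although its groups did not overlap. Rpl27a, a large subunit protein, was at 249, 261 and 278 FPKM in MEF, 281, 293 and 264 in D4, 233, 247 and 237 in the libraries labelled D4_DUX, and 278, 269 and 274 in iPSC, and was lower in the libraries labelled D4_DUX (log2 fold change -0.22, SE 0.05, adjusted p = 0.00477). Rpl35a, a large subunit protein mutated in some cases of Diamond-Blackfan anaemia, was at 76.1, 78.9 and 81.8 FPKM in MEF, 87.5, 94.7 and 79.2 in D4, 71.9, 78.7 and 73.8 in the libraries labelled D4_DUX, and 103, 94.5 and 97.7 in iPSC (log2 fold change -0.22, SE 0.06, adjusted p = 0.0198). The D4_DUX range lay just below that of D4 for Rpl35a. Rps27a, made as a fusion to ubiquitin, was at 175, 169 and 180.5 FPKM in MEF, 174, 198 and 173 in D4, 151, 159 and 159 in the libraries labelled D4_DUX, and 199, 193 and 207 in iPSC, again without overlap of the day 4 groups (log2 fold change -0.21, SE 0.05, adjusted p = 0.0101). The values nearest 0 were those of Rps9 (-0.02, adjusted p = 0.869), Rplp0 (-0.02, adjusted p = 0.798), Rpl10 (-0.03, adjusted p = 0.682) and Rpl15 (-0.06, adjusted p = 0.453). Rps9, a small subunit protein that binds early in assembly, was at 224, 232 and 254 FPKM in MEF, 245, 260.4 and 235 in D4, 240.3, 250.02 and 242 in the libraries labelled D4_DUX, and 307, 278 and 280.4 in iPSC, and its day 4 ranges overlapped. Rpl15, a large subunit protein, was at 209, 213 and 229 FPKM in MEF, 218, 216 and 197 in D4, 199, 204 and 204 in the libraries labelled D4_DUX, and 226, 204 and 209.5 in iPSC, with overlapping D4 and D4_DUX ranges. Rpl5 (-0.17, adjusted p = 0.0056), Rpl11 (-0.14, adjusted p = 0.0214) and Rps6 (-0.15, adjusted p = 0.0418) were lower, and Rpsa (-0.07, adjusted p = 0.288), Rplp1 (-0.07, adjusted p = 0.519) and Rplp2 (-0.08, adjusted p = 0.257) were not called. The calls of Rpl11, Rpl35a and Rps6 were lost without D4 library 1, D4 library 2, D4_DUX library 1 or D4_DUX library 3, each left out in turn. Rpl29, not called lower on its own, was called lower when its copies were added (-0.19, adjusted p = 0.0133).

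The direction of the members as a group in iPSC depended on the scaling. Against D4, 33 of 82 members were higher and 9 lower, with a median log2 fold change of 0.08, but the median was -0.11 with 13 higher and 31 lower after median-ratio scaling, and 0.29 with 59 and 4 after quantile normalization. Single libraries also moved it, to 0.0452 without D4 library 3, 0.0416 without iPSC library 1 and 0.13 without D4 library 2. Over all genes 48.5% were higher and 33.9% lower on the deposited scale. After median-ratio scaling, 7170 of all 17114 genes were higher and 6921 lower, and after quantile normalization 6712 and 7664. The median over all genes was 0.16 on the deposited scale, 0.01 after median-ratio scaling and -0.07 after quantile normalization, so the members' median lay below it on the first scalings and above it on the last. Against MEF, 53 members were higher and 4 lower, with a median of 0.21, but -0.03 with 12 and 20 after median-ratio scaling, and 0.38 with 67 and 3 after quantile normalization. Over all genes 51.0% were higher and 31.2% lower, with a median of 0.21, 0.03 and -0.07 under the same scalings. The genes called higher and lower numbered 7144 and 6737 of 17114 after median-ratio scaling, and 6609 and 7561 after quantile normalization. On the deposited scale, 24 of 31 small and 25 of 46 large subunit core members were higher than in MEF, and 0 and 3 were lower. Both comparisons share the iPSC libraries, and D4 enters 3 of the 4 comparisons.

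Several single members had larger values. Rpl8, a protein close to the catalytic centre of the large subunit with no near-identical copy (ENSMUSG00000003970, chr15:76904078-76906314), was at 547, 584 and 612 FPKM in MEF, 603, 617 and 570.3 in D4, 522, 529 and 517 in the libraries labelled D4_DUX, and 1018, 926 and 956 in iPSC. Every iPSC library lay above the other 9 (log2 fold change 0.73, SE 0.05, adjusted p = 9.05e-08 against MEF). Rpl12, which binds at the base of the stalk, was at 187, 191 and 196 FPKM in MEF, 197, 208 and 179.9 in D4, 177, 183 and 179 in the libraries labelled D4_DUX, and 277, 268 and 262 in iPSC, with iPSC again above all others (log2 fold change 0.49, SE 0.05, adjusted p = 1.79e-06 against MEF). Rpl3, which helps to shape the catalytic centre, was at 322, 318 and 333 FPKM in MEF, 401, 418 and 384 in D4, 343, 361 and 347 in the libraries labelled D4_DUX, and 495, 471 and 472 in iPSC. It was higher in D4 than in MEF and in iPSC than in MEF (log2 fold change 0.56, SE 0.04, adjusted p = 1.21e-07 for iPSC), and its call in iPSC against D4 was lost after median-ratio scaling. Its log2 fold change in D4 against MEF went from 0.30 to 0.14 with copies. Rpl14, a large subunit protein with a TOP start, was at 334, 337 and 366 FPKM in MEF, 331, 358 and 319.7 in D4, 305, 317 and 297 in the libraries labelled D4_DUX, and 450.00, 426 and 437 in iPSC (log2 fold change 0.38, SE 0.05, adjusted p = 2.71e-05 for iPSC against D4). Rpl36 was also higher in iPSC than in MEF (0.56, adjusted p = 0.00043).

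Among the members lower in iPSC than in D4 were Rpl39, Rpl37a and Rplp0. Rpl39, a short protein that lines the exit tunnel (ENSMUSG00000079641, chrX:37082520-37085402), was at 90.9, 89.1 and 116 FPKM in MEF, 117, 128 and 110.3 in D4, 97.99, 109 and 112 in the libraries labelled D4_DUX, and 83.5, 69.6 and 71.3 in iPSC. The iPSC libraries lay below all others (log2 fold change -0.66, SE 0.10, adjusted p = 9.9e-05, and against MEF -0.39, adjusted p = 0.00478). Rpl37a fell in iPSC against D4 (log2 fold change -0.50, SE 0.08, adjusted p = 0.000127) and was not called against MEF (-0.14, adjusted p = 0.138). Rplp0 was lower on its own (-0.35, adjusted p = 3.17e-05) and not called with copies (0.10, adjusted p = 0.103). Rpl10, a large subunit protein added last in assembly, was at 312, 309 and 331 FPKM in MEF, 329, 337 and 303 in D4, 307, 323 and 319 in the libraries labelled D4_DUX, and 269.9, 269 and 268 in iPSC, with iPSC below the other groups (log2 fold change -0.24, SE 0.05, adjusted p = 0.00043 against MEF). Rps27, a zinc-finger protein of the small subunit, was at 171, 168 and 204 FPKM in MEF, 185, 193 and 166 in D4, 151, 168 and 161 in the libraries labelled D4_DUX, and 181, 161 and 156 in iPSC and was not called in iPSC against MEF (-0.13, adjusted p = 0.191). Of the stalk and p53-linked proteins, Rpl5 (0.35, adjusted p = 2.99e-06), Rpl11 (0.19, adjusted p = 0.00123), Rplp2 (0.20, adjusted p = 0.00364) and Rpsa (0.19, adjusted p = 0.00344) were higher in iPSC than in MEF, as was Rps6 (0.32, adjusted p = 0.000115), while Rplp1 was not called (-0.04, adjusted p = 0.668). The direction of Rpl11, Rplp2 and Rpsa turned after median-ratio scaling, and the call of Rps6 was lost. The call of Rplp0 in iPSC against D4 was lost after quantile normalization.

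The members were next divided by their annotated start. Only that base was read, so members without a tract there may still have a TOP start, and paralogs such as Rpl7l1 are among them. The split therefore cannot compare TOP messages with others. Of the 13 with a TOP start, 1 was higher in D4 than in MEF, 4 were lower in the D4_DUX-labelled libraries than in D4, 5 were higher in iPSC than in D4 and 8 were higher in iPSC than in MEF, and no other calls were made. These counts stand beside the shares over all genes given above, 34.2% higher in D4, 15.4% lower in the D4_DUX-labelled libraries, and 48.5% and 51.0% higher in iPSC than in D4 and in MEF. Of the 49 tested members with an entry and no tract at the annotated base, 20 were higher in D4, 11 were lower and 1 higher in the D4_DUX-labelled libraries, 19 were higher and 6 lower in iPSC than in D4, and 33 were higher and 3 lower in iPSC than in MEF. Members that host small nucleolar RNA genes had a median of 0.09 in D4 against MEF and -0.13 in D4_DUX against D4, and core members without such genes 0.12 and -0.13. The 4 X-linked members included the iPSC-low Rpl10 and Rpl39, and Rps4x, a small subunit protein, which was at 538, 535 and 577 FPKM in MEF, 552, 565 and 527 in D4, 487, 508 and 478 in the libraries labelled D4_DUX, and 649.8, 635 and 605 in iPSC.

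The paralogs were compared with their core partners. Rpl10l, an intronless copy of Rpl10 known from the testis, where it serves while the X chromosome is silenced (ENSMUSG00000060499, chr12:66283379-66284401), shares 84.7% of its coding bases with Rpl10. It was at 0, 0 and 0 FPKM in MEF, 0, 0 and 0 in D4, 0.0184, 0 and 0 in the libraries labelled D4_DUX and 68.8, 66.2 and 72.6 in iPSC. Only the iPSC libraries had more than a trace, and against a floor of 3 fragments per library the iPSC mean was at least 530-fold higher than that of MEF or D4, counting error only. In iPSC it made up 20.5 ± 0.777% of the summed FPKM of Rpl10 and Rpl10l (SD, n = 3). Shares and sums of a pair, here and below, depend on the annotated exon lengths, which were 1023 bases for Rpl10l and 2053 for Rpl10. The summed level of both genes was 338 ± 2.81 FPKM in iPSC and 323 ± 17.9 in D4. The 6 male germline markers summed to 29.3 to 34.03 FPKM in iPSC and at most 1.48 in the other groups, and only 3 of them passed the filter. At 0 in every library of a group were 2 of them in MEF, 2 in D4 and 1 in the libraries labelled D4_DUX, with Tnp1 among them each time. The part of germline genes in the level of Rpl10l was not tested.

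Rpl39l, the paralog of the tunnel protein Rpl39 and also known from male germ cells, was at 5.50, 5.56 and 5.99 FPKM in MEF, 4.71, 6.18 and 4.62 in D4, 4.57, 5.24 and 5.23 in the libraries labelled D4_DUX, and 20.7, 17.1 and 20.7 in iPSC. The iPSC libraries lay above all others (log2 fold change 1.61, SE 0.10, adjusted p = 1.92e-08 against MEF), and Rpl39 itself was lowest there. The share of Rpl39l in the pair was 5.50 ± 0.513% in MEF, 4.16 ± 0.388% in D4, 4.50 ± 0.0817% in the libraries labelled D4_DUX and 20.7 ± 1.55% in iPSC. Rpl7l1, a relative of Rpl7 found on assembling large subunits, was at 18.7, 19.4 and 20.1 FPKM in MEF, 22.8, 23.4 and 22.1 in D4, 28.3, 27.04 and 26.4 in the libraries labelled D4_DUX, and 68.4, 69.97 and 64.9 in iPSC. Each group lay above the one before without overlap, and Rpl7l1 was the only member higher in the D4_DUX-labelled libraries than in D4 (log2 fold change 0.25, SE 0.04, adjusted p = 0.000813). It was higher in iPSC than in D4 by 1.53 (SE 0.04, adjusted p = 1.17e-11). Rpl7, its partner, was at 305, 293 and 301 FPKM in MEF, 333, 345 and 312 in D4, 288, 296 and 294 in the libraries labelled D4_DUX, and 271, 285 and 285 in iPSC, with iPSC below D4 (-0.23, adjusted p = 0.000253), although its log2 fold change turned to 0.00840 after quantile normalization.

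Rps27l, the paralog of Rps27 and a known target of p53, was higher at day 4 than in MEF. It was at 73.96, 75.7 and 88.6 FPKM in MEF, 123, 135 and 116 in D4, 120.3, 131 and 125 in the libraries labelled D4_DUX, and 117, 111 and 119 in iPSC. All D4 libraries lay above all MEF libraries (log2 fold change 0.65, SE 0.07, adjusted p = 1.03e-05), and it was not called between the day 4 groups (0.01, adjusted p = 0.932). Its share of the pair was 30.5 ± 0.479% in MEF and 40.7 ± 0.638% in D4. Rpl22l1, the paralog of the RNA-binding protein Rpl22, was at 11.5, 9.35 and 13.2 FPKM in MEF, 11.05, 11.3 and 10.8 in D4, 10.4, 10.2 and 11.2 in the libraries labelled D4_DUX, and 8.12, 7.72 and 8.16 in iPSC. It was lower in iPSC than in D4 on its own (-0.42, adjusted p = 0.000959) and not called with its copy (-0.13, adjusted p = 0.175), and Rpl22 was at 67.4, 65.5 and 77.3 FPKM in MEF, 80.8, 86.03 and 76.04 in D4, 73.5, 77.2 and 74.9 in the libraries labelled D4_DUX, and 95.2, 81.5 and 86.7 in iPSC. Rpl3l, the muscle paralog of Rpl3, stayed under 1 FPKM, at 0, 0.0907 and 0.0325 FPKM in MEF, 0.0540, 0.0980 and 0.159 in D4, 0.0229, 0.113 and 0.0890 in the libraries labelled D4_DUX, and 0.772, 0.744 and 0.794 in iPSC, with iPSC above the rest. Rps4l, a relative of Rps4x that GENCODE M21 lists as a transcribed processed pseudogene and that is therefore no member, was at 33.1, 30.1 and 33.9 FPKM in MEF, 50.4, 51.2 and 48.8 in D4, 52.1, 57.4 and 58.1 in the libraries labelled D4_DUX, and 273, 249 and 287 in iPSC, and its share of the pair with Rps4x was 5.56 ± 0.229% in MEF and 29.98 ± 2.02% in iPSC.

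**Figure D4:**
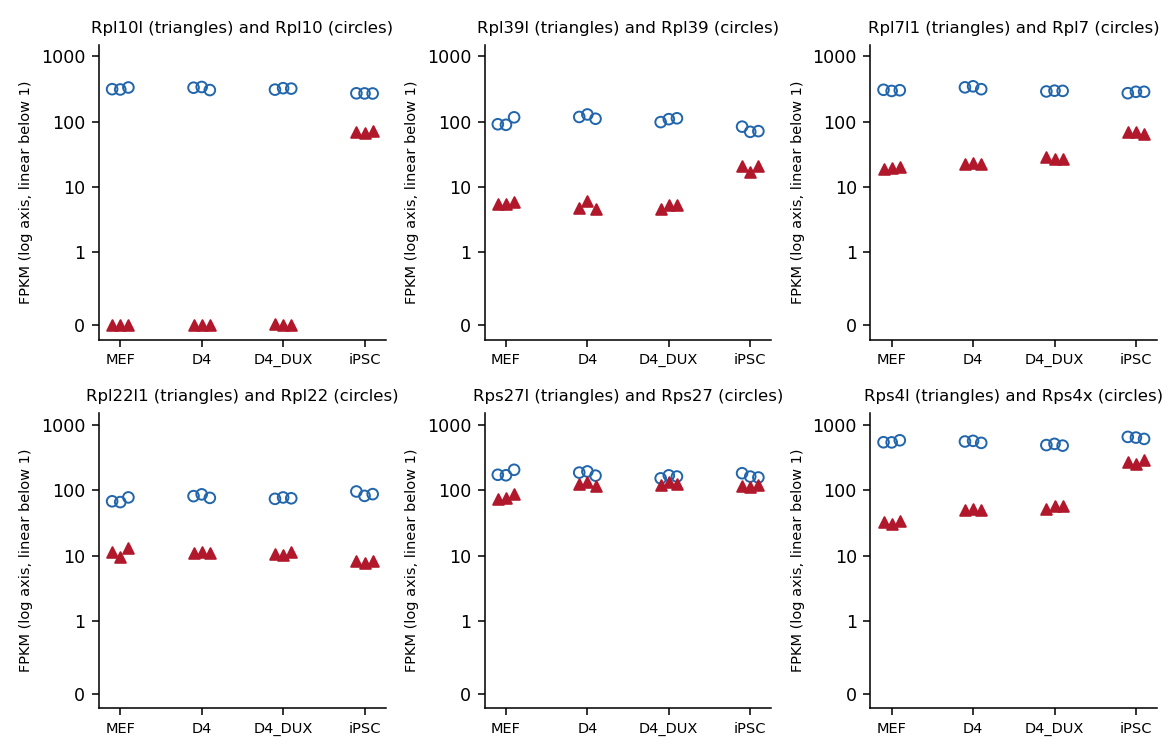
FPKM of 6 paralogs and their partners in each of 12 libraries, on an axis that is linear near 0 and logarithmic above. Rpl10l appears in iPSC at 69.2 FPKM on average, Rpl39l and Rpl7l1 are highest in iPSC, and Rps27l is higher in all groups after MEF.

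Genes that transcribe ribosomal RNA and assemble ribosomes were counted by list. For every list, the shares over all genes tested were 34.2% higher and 27.6% lower in D4 than in MEF, 20.1% and 15.4% in the D4_DUX-labelled libraries than in D4, and 51.0% and 31.2% in iPSC than in MEF. Of 58 nucleolar assembly genes, 45 were higher and 3 lower in D4 than in MEF (median log2 fold change 0.32), 36 were higher and 0 lower in the D4_DUX-labelled libraries than in D4 (0.18), and 56 were higher and 1 lower in iPSC than in MEF (1.53). Dkc1, the pseudouridine synthase of small nucleolar RNPs, was at 4.50, 7.91, 9.07 and 46.2 FPKM in MEF, D4, the libraries labelled D4_DUX and iPSC. Nop56, a core protein of the methylating small nucleolar RNPs, was at 13.99, 17.4, 22.7 and 96.1 FPKM in the same order. Of 14 RNA polymerase I genes, 8 were higher and 1 lower in D4 than in MEF, 5 were higher and 0 lower in the D4_DUX-labelled libraries than in D4, and 14 were higher and 0 lower in iPSC than in MEF. Polr1a, its largest subunit, was at 3.52, 5.61, 6.86 and 16.9 FPKM, and Ubtf, which opens ribosomal RNA genes, at 13.1, 13.3, 17.3 and 39.4 FPKM. The nucleolar medians in these 3 comparisons were 0.27, 0.16 and 1.30 after median-ratio scaling and 0.25, 0.14 and 1.30 after quantile normalization.

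Of 79 mitochondrial ribosomal proteins, 41 were higher and 3 lower in D4 than in MEF, 10 were higher and 1 lower in the D4_DUX-labelled libraries than in D4, and 66 were higher and 3 lower in iPSC than in MEF. In the day 4 comparison their median was 0.03, beside -0.13 for the cytosolic members. It was 0.01 after median-ratio scaling, and 40 of the 79 values were positive after quantile normalization. In iPSC against MEF, 9 of them were lower after median-ratio scaling and 13 after quantile normalization. Their share called higher in the D4_DUX-labelled libraries, 12.7%, lay below that over all genes. A list of 23 genes held translation initiation and elongation factors and messages with a TOP start. Of these, 14 were higher and 2 lower in D4 than in MEF, and 3 were higher and 3 lower in the D4_DUX-labelled libraries than in D4. In iPSC against MEF, 16 of the 23 were higher and 4 lower. After median-ratio scaling, 12 of them were higher and 7 lower in iPSC than in MEF, and their median went from 0.49 to 0.25. Of 17 regulators, 7 were higher and 5 lower in D4 than in MEF, 6 were higher and 0 lower in the D4_DUX-labelled libraries than in D4, and 15 were higher and 1 lower in iPSC than in MEF. Myc, a factor of the reprogramming cassette and an activator of ribosome genes, was at 13.98, 106, 132 and 21.5 FPKM, Mycn at 0.262, 0.413, 0.449 and 53.5 FPKM, and Larp1, which binds TOP messages, at 24.5, 27.3, 32.8 and 70.4 FPKM. After quantile normalization, 4 regulators were higher in D4 than in MEF. Of 5 ribosomal proteins outside the name rule, 1 was higher and 0 lower in D4 than in MEF. In iPSC against MEF 2 were higher and 1 lower, but 0 and 3 after median-ratio scaling. In the D4_DUX-labelled libraries against D4, 0 were higher, 1 lower and 4 not called. The lower one was Rack1, a scaffold on the small subunit (-0.17, adjusted p = 0.00647).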

How the data were processed

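Poly(A)-selected stranded libraries were sequenced as 150-base read pairs after 15 PCR cycles, per the labels' protocols. The deposited values are FPKM per gene, made by the authors on genome build mm10 per the submitters' processing notes. Aligner, counting tool and the treatment of strand and shared fragments: not given in the sources used here. FPKM shows a gene relative to its library, so a change in other abundant genes moves it. Symbols and lengths came from GENCODE M21, which holds 99.6% of the identifiers. limma 3.58.1 (R 4.3.3) was fitted to log2(FPKM + 1) of all 12 libraries with 4 group means, over 17114 genes with at least 1 FPKM in at least 3 libraries, with Benjamini-Hochberg adjustment and a threshold of 0.05. Fold changes on this scale are understated for low genes. Copies were found with blastn 2.17.0, and FPM values are FPKM times exon length in kilobases. The fit was tested on simulated data. Values by library are given for the paralogs and their partners, for Rplp0, Rplp1, Rplp2, Rpsa, Rpl5, Rpl11 and Rps6, and for the 4 highest and 4 lowest core members of each comparison with a mean of at least 5 FPKM. Some items are not reported here. From other lists, genes with the smallest adjusted p were named. The members and lists were chosen with earlier results of these data known. Alternatives were other pseudocounts, filters, scalings, gene sets, a replicate block, 2-group fits, leaving out each library, and adding copies. No pair of libraries held identical values.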

Additional observations from a re-analysis of the deposited data

How the results depend on the processing

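For a subset of the members, in 114 combinations of member and comparison, 2344 of 2508 alternative values kept direction and side of the threshold, 114 fell below it, 29 rose past it and 21 reversed, and the cause was not tested. Of the reversals, 8 came with median-ratio scaling, 8 with copies added and 5 with quantile normalization. Filters, gene sets, the replicate block, 2-group fits and leaving out a library outside the comparison could not change direction. The pooled total therefore overstates stability. With near-identical copies added, an alternative chosen after seeing the data, the log2 fold change in D4 against MEF was 0.15 for Rpl15, 0.0206 for Rpl29, 0.13 for Rps3a1 and -0.30 for Rpsa. In iPSC against D4 it was -0.23 for Rpl15, 0.20 for Rpl21, 0.0966 for Rplp0 and 0.51 for Rpsa, and 2 members were lower in iPSC than in MEF. Quantile normalization gave 0.19 for Rps4x in D4 against MEF, 0.00840 for Rpl7 and 0.22 for Rpsa in iPSC against D4, and 0.0705 for Rpl7 and 0.42 for Rplp1 in iPSC against MEF. It gave 4 members lower in D4 than in MEF, a median of 0.29 with 59 higher and 4 lower in iPSC against D4, and a median of 0.38 in iPSC against MEF. Median-ratio scaling gave 18 higher and 2 lower in D4 against MEF. In iPSC against D4 it gave a median of -0.11 with 13 higher and 31 lower, -0.15 for Rpl11 and -0.17 for Rpl15. In iPSC against MEF it gave a median of -0.0347 with 12 higher and 20 lower, -0.0561 for Rpl11, -0.17 for Rpl29, -0.0880 for Rplp0, -0.0371 for Rplp2, -0.0474 for Rps4x and -0.0545 for Rpsa. Without a filter, 15 members were lower in D4_DUX against D4. Leaving out each library gave 18 to 39 members higher and 1 to 3 lower in D4 against MEF, and 12 to 37 lower in D4_DUX against D4. With protein-coding genes as the denominator the share was 10.5, 10.99, 10.1 and 11.8% in MEF, D4, D4_DUX and iPSC, and without the 50 most abundant other genes 10.4, 10.8, 9.81 and 10.96%. With the replicate number as a block, 25 members were higher and 1 lower in D4 against MEF, 1 and 19 in D4_DUX against D4, 31 and 8 in iPSC against D4, and 51 and 3 in iPSC against MEF. The numbers did not pair the libraries: correlations of the deviations of same-numbered libraries ran from -0.146 to 0.0699 over 18 pairs.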

Other observations

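Genes with the pattern of Rpl29, at least 8-fold lower in both day 4 groups than in MEF and iPSC and at 5 FPKM or more there, numbered 27 in the whole table. Of these, 16 were processed pseudogenes, 12 were near-identical copies of ribosomal protein genes, and 8 were protein-coding. The reverse pattern, at least 8-fold higher in both day 4 groups, was met by 77 genes, 3 of them processed pseudogenes, 1 a copy of a ribosomal protein gene and 63 protein-coding. Among the protein-coding genes with the pattern of Rpl29 was Ifi202b, an interferon-inducible gene, picked here after its values were seen. It was at 66.8, 54.5 and 65.9 FPKM in MEF, at 0 in all 6 day 4 libraries, and at 49.5, 39.3 and 42.4 in iPSC. Genetic background and day 4 cannot be told apart in this pattern. Of 254 copies tested on their own, 31 were higher and 44 lower in D4 than in MEF, 4 and 19 in the D4_DUX-labelled libraries than in D4, and 67 and 13 in iPSC than in MEF. Over all genes the shares were 34.2% and 27.6%, 20.1% and 15.4%, and 51.0% and 31.2% in the same order.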
